A study of Mus musculus with 6 samples.

Results

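The epithelial keratins described here are 7 genes, Krt8, Krt18, Krt19, Krt20, Krt7, Krt23 and Krt80, out of 18193 genes named on the array. They were chosen by symbol, as all probe sets whose platform annotation names 1 of these genes and no other, which gave 9 probe sets: 3 of Krt8 and 1 of each other gene. A probe set is a group of short oligonucleotides that together report 1 transcript. Signals were measured in 3 colon RNA samples of control mice and 3 of mice of the HDAC2 KO group, 1 one-colour Affymetrix array per sample. In the HDAC2 KO group a floxed Hdac2 gene, which encodes a histone deacetylase, was deleted with villin-Cre, a Cre recombinase whose villin promoter drives expression in the epithelium of the intestine. All mice were of the mixed CD-1/129/C57BL/6 background and were untreated on a normal diet. Whether the controls carried the floxed allele or the Cre, and the age of the mice, are not given in the sources used here. Titles and genotype labels name HDAC2 alone, whereas the description of that group names HDAC1/2.

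Keratins are the intermediate filament proteins of epithelial cells. They assemble as pairs of an acidic type I and a basic type II protein, so that neither type forms filaments alone. In simple epithelia the type II keratin 8 pairs with the type I keratins 18, 19 and 20. In the colon, keratins 8, 18 and 19 are found along the whole crypt, keratin 20 marks the differentiated cells of the upper crypt and the surface, and keratin 7 is more restricted. Keratin 23 is a divergent type I keratin known to be induced by histone deacetylase inhibitors in cultured cancer cells, and keratin 80 is a type II keratin linked to cell junctions and late differentiation. In the order of the mouse RefSeq annotation, Krt20 and Krt23 are direct neighbours on chromosome 11, with 0 protein-coding genes between them. Krt19 lies in the same type I cluster, 50 protein-coding genes away from Krt20. Krt8 and Krt18 are direct neighbours on chromosome 15, as are Krt7 and Krt80. Krt18 is thus a type I gene that sits beside the type II cluster.

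Of the 7 genes, RefSeq promoter windows of build GRCm38.p6 were matched for 5 and are shown for Krt20 and Krt23, because these neighbours gave the only called differences among the 9 probe sets, in opposite directions. Each line holds the 250 bases before the annotated start, 5′ to 3′ on the strand of the gene, which is the minus strand for both. Capitals mark TTTAT on either strand, the core of the sites bound by CDX1 and CDX2, and TATAAA, the TATA box. The 2 motifs overlap in Krt20.
Krt20, chr11:99438154-99438403: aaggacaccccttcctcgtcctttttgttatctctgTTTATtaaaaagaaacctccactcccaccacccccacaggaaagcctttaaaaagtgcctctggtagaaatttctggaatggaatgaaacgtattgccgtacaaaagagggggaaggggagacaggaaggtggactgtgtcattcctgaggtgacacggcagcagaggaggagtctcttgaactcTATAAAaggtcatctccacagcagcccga
Krt23, chr11:99493121-99493370: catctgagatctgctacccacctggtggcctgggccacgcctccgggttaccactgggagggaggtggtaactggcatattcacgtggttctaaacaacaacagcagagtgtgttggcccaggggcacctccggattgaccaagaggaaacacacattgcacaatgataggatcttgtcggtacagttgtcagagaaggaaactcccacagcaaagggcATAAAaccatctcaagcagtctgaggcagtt
The Krt20 window held TTTAT at 214 bases before the start on the gene's strand and again, on the other strand, at 28 bases before it, inside the TATA box at 29 bases. The Krt23 window held it once, on the other strand at 31 bases before the start, without the TATA box. The CDX core TTTAT occurred on either strand in 37.3% of all 32851 windows of this length and TATAAA in 12.4%. The windows of Krt8 and Krt18 had neither, and that of Krt7 had TTTAT once, at 7 bases before the start. CACCC, a core of the sites bound by KLF factors, was found in the windows of Krt20, Krt8, Krt18 and Krt7, and in 52% of all windows. GGGCGG, the GC box, was found 4 times in the Krt7 window, in 32.7% of all windows and in none of the other 4 keratin windows. These matches describe the letters in the windows only.

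The arrays were alike and the labels limit the comparison in a few ways. Over the 10916 genes that entered the test, r was 0.9964 to 0.9989 for pairs of arrays within a group and 0.9907 to 0.9923 for pairs across groups. These correlations are across genes, which are not independent replicates. Hdac2 was lower on the HDAC2 KO arrays by 13.7% (difference -0.21 on the log2 scale, SE 0.040, limma adjusted p = 0.00893). Without probe sets able to bind several transcripts the difference was as large (-0.22) with a wider SE (0.076), and it was not called (adjusted p = 0.0884). Where the probe set lies relative to the deleted part was not analysed here. Hdac1 was 11.2% higher on the HDAC2 KO arrays (difference 0.15, SE 0.039, limma adjusted p = 0.0321). It was called in 8 of 15 other fits. Whether Hdac1 was also deleted was not tested. The sample titles give a replicate number of control or HDAC2 KO mice and do not state how many mice a sample holds. Xist, expressed from the inactive X chromosome of females, read between 11.52 and 12.04 on all arrays. The Y-linked gene Kdm5d read 6.96, 7.02 and 6.90 in control and 7.71, 7.36 and 7.84 in HDAC2 KO. Xist was lower and Kdm5d higher on every HDAC2 KO array than on any control array. Whether 1 array holds RNA of more than 1 mouse is thus not settled by these signals, and a difference of sex cannot be told apart from one of genotype here. The source label names epithelium, and all 17 pan-epithelial genes listed, such as Epcam and Cdh1, lay above the signal filter of 6.66. So did all 8 smooth muscle genes, which epithelial cells alone would not supply.

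The surface keratin rose in HDAC2 KO while the crypt-wide keratins moved little. The Krt20 signal read 12.44, 12.34 and 12.40 in control and 12.89, 12.88 and 12.87 in HDAC2 KO. Every HDAC2 KO array lay above every control array, and the gap between the groups was far larger than the spread within either. Krt20 was 1.40-fold higher, from 12.39 ± 0.052 to 12.88 ± 0.010 (SD, n = 3 per group), a difference of 0.48 on the log2 scale with SE 0.037 and a 95% interval of 0.40 to 0.57. Its limma adjusted p was 9.11e-05 over all genes tested. By p it ranked 132 among the 10916 genes and by size of the difference 232. In 15 other fits its difference lay between 0.46 and 0.51 and its adjusted p between 6.57e-08 and 0.00121. Of the 5 keratin genes that passed the signal filter Krt20 was the only one called, 1 of 5, where 17.9% of all genes tested were called. In bulk tissue RNA, a different number of surface cells and a different amount of Krt20 RNA per surface cell cannot be told apart.

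**Figure D1:**
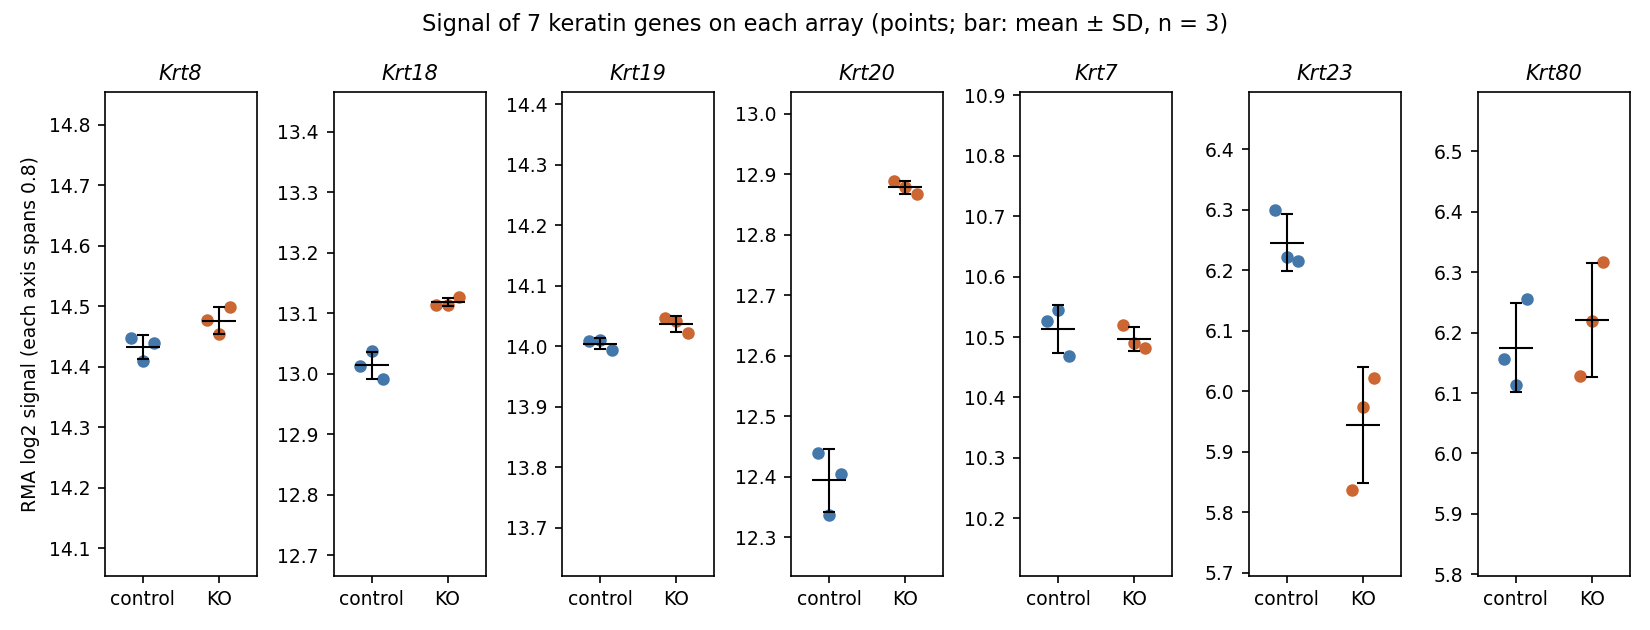
RMA log2 signal of the 7 keratin genes on each array, 1 panel per gene with 3 control and 3 HDAC2 KO (KO) points, the mean and the SD; each vertical axis spans the same 0.8 log2 units, and for Krt8 the probe set of highest signal is shown. The Krt20 points move from about 12.39 to 12.88 and the Krt23 points from about 6.25 to 5.94, while the other panels shift little.

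Among the crypt-wide keratins, Krt8 encodes the type II partner of all simple type I keratins. Its probe set of highest signal read 14.45, 14.41 and 14.44 in control and 14.48, 14.45 and 14.50 in HDAC2 KO. The groups were separated only by the third decimal. The difference was 0.044 (SE 0.032, 95% interval -0.031 to 0.12, limma adjusted p = 0.404). The second Krt8 probe set read 14.31 ± 0.0061 in control and 14.35 ± 0.019 in HDAC2 KO, and the third 14.19 ± 0.013 and 14.20 ± 0.0031 (SD, n = 3 each). The groups overlapped on the third probe set and not on the second. Both carry the suffix of probe sets that can bind several transcripts. All 3 agreed in sign, with differences of 0.044, 0.037 and 0.0055.

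Krt18, the main type I partner of keratin 8, read 13.01, 13.04 and 12.99 in control and 13.11, 13.11 and 13.13 in HDAC2 KO. The groups did not overlap, and the HDAC2 KO arrays were close together. Its signal was 7.5% higher (difference 0.10, SE 0.031, 95% interval 0.032 to 0.18), which missed the threshold with a limma adjusted p of 0.0557. In other fits Krt18 fell on either side of that threshold. It was called with the filter at the 60th percentile (adjusted p = 0.035), after a further quantile normalization (0.0293), in limma with trend and robust settings (0.00252) and with array weights (0.016), and was not called in the other 11, where the adjusted p reached 0.166.

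Krt19, the type I keratin without a tail domain, read 14.01, 14.01 and 13.99 in control and 14.05, 14.04 and 14.02 in HDAC2 KO. All HDAC2 KO arrays lay above the controls, by a few hundredths. The difference was 0.032 (SE 0.031, 95% interval -0.038 to 0.10, limma adjusted p = 0.52) and was not called. The 3 crypt-wide keratins thus shared a direction without a call, and groups that did not overlap were common: this held for 4 of the 5 keratin genes tested and for 37.7% of all genes tested. The median difference of the 5 was 0.044, against 0.0032 over all genes tested. Krt8 and Krt19 lay near the top of the array range, 0.15 and 0.58 below the highest signal on the control arrays on average. Krt20 lay 2.19 below it in control. After a further quantile normalization the Krt8 difference was 0.00099. Whether the probes of Krt8 and Krt19 were saturated was not tested.

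The additional keratins Krt7, Krt23 and Krt80 did not move together. Krt7, which encodes a type II keratin, read 10.53, 10.54 and 10.47 in control and 10.52, 10.49 and 10.48 in HDAC2 KO. The groups overlapped throughout. The difference was -0.016 (SE 0.035, 95% interval -0.097 to 0.064, limma adjusted p = 0.793), and it kept its sign without a call in all 15 other fits. Its signal was well above the filter level in both groups, so the name ectopic, given to these 3 keratins beforehand, was not borne out for Krt7 by its signal.

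Krt23 was lower in HDAC2 KO, at a signal below the filter. It read 6.30, 6.22 and 6.22 in control and 5.84, 5.97 and 6.02 in HDAC2 KO. The groups did not overlap, and HDAC2 KO replicate 1 was the lowest array. It therefore entered only the fit over all 45037 probe sets, where it was 1.23-fold lower (difference -0.30, SE 0.062, 95% interval -0.45 to -0.16, limma adjusted p = 0.0453). In that fit 3.8% of all probe sets and 2 of the 9 keratin probe sets were called, Krt20 (adjusted p = 0.00197), among 1.72% of all probe sets called higher, and Krt23, among 2.08% called lower. Groups did not overlap for 6 of the 9 and for 23.2% of all probe sets. Blocking on the replicate number ended the Krt23 call (adjusted p = 0.134). It was also lost without control replicate 1 (0.177), 2 (0.135) or 3 (0.121) and without HDAC2 KO replicate 1 (0.121), 2 (0.0775) or 3 (0.0597). With 1 probe set per gene and no filter the adjusted p was 0.0239. Cross-hybridisation at this signal was not tested.

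Krt80 read 6.16, 6.11 and 6.26 in control and 6.13, 6.22 and 6.32 in HDAC2 KO. The groups overlapped, and the spread within each exceeded the gap between the means. In the fit over all probe sets its difference was 0.046 (SE 0.066, 95% interval -0.11 to 0.20, limma adjusted p = 0.806). At this signal, below the filter, a small change was not detectable.

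**Figure D2:**
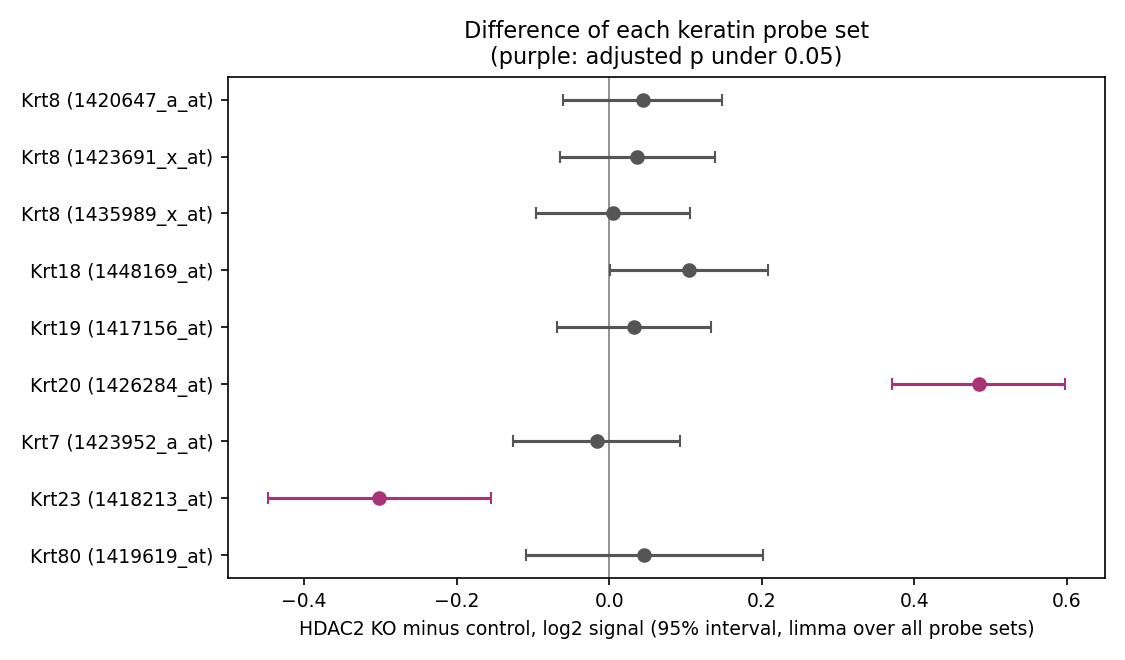
Difference of each of the 9 keratin probe sets, HDAC2 KO minus control in log2 signal, with its 95% interval from limma fitted over all 45037 probe sets; purple marks an adjusted p under 0.05. Krt20 lies to the right at 0.48 and Krt23 to the left at -0.30, and the other 7 lie between -0.016 and 0.10.

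Whether Krt20 rose more than the crypt-wide keratins was read within each array, as the log2 signal of Krt20 minus that of a second keratin. Only changes of this quantity between groups carry meaning, since probe sets of different genes have no common scale. A shift against Krt8 or Krt19 also holds only if their probes, near the top of the array range, could still register a rise, which was not tested. Against Krt8 it was -2.01, -2.07 and -2.04 in control and -1.59, -1.58 and -1.63 in HDAC2 KO, a shift of 0.44 (SE 0.025), or 1.36-fold. Against Krt18 it shifted by 0.38 (SE 0.042), or 1.30-fold, and against Krt19 by 0.45 (SE 0.032), or 1.37-fold. In all 3 pairs every HDAC2 KO array lay above every control array. The exact 2-sided permutation p was 0.1 for each, the smallest that 3 against 3 arrays allow, and 0.15 after Benjamini-Hochberg adjustment over the 6 pairs compared. The log2 signal of Krt20 relative to that of these 3 keratins was thus higher on every HDAC2 KO array, in a design that cannot reach a p under 0.1 by this test.

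The same reading was made for the additional keratins against Krt8. Krt23 minus Krt8 was -8.15, -8.19 and -8.22 in control and -8.64, -8.48 and -8.48 in HDAC2 KO. It shifted by -0.35 (SE 0.059), with no overlap and an exact permutation p of 0.1 (0.15 adjusted). Most of that shift is the Krt23 difference of -0.30 itself, at a signal below the filter, with Krt8 near the top of the range. Krt7 minus Krt8 shifted by -0.060 (SE 0.036, exact permutation p = 0.3) and Krt80 minus Krt8 by 0.0023 (SE 0.061, exact permutation p = 0.9), and in both the groups overlapped. The shifts of Krt20 and Krt23, neighbours in the genome, had opposite signs relative to Krt8.

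**Figure D3:**
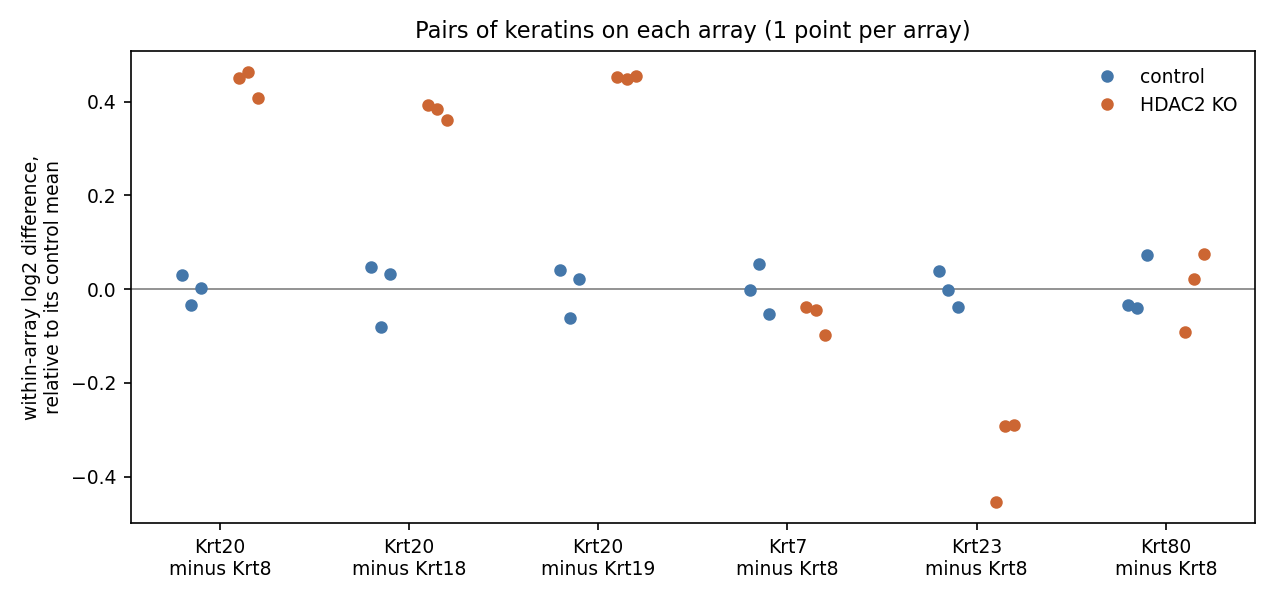
Within-array log2 difference between 2 keratins on each of the 6 arrays, relative to the mean of the control arrays for that pair. The HDAC2 KO points of the 3 Krt20 pairs lie on average 0.38 to 0.45 above the control mean, those of Krt23 minus Krt8 lie 0.35 below it on average, and those of the Krt7 and Krt80 pairs mix with the controls.

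The keratins of stratified epithelium and hair stayed without a call. The array named 41 further keratin genes, of which 32 lay below the filter and 9 were tested. By limma, 0 of the 9 were called, 1 at an unadjusted p under 0.05, where 17.9% of all genes tested were called. Without the filter 0 of all 41 were called, 3 at an unadjusted p under 0.05, where 1386 of all 18193 genes were called. Among the 9, 2 had groups that did not overlap. This held for 37.7% of all genes tested, so it does not set the 2 apart. The hair keratin Krt36 went from a mean of 6.83 ± 0.038 to 6.92 ± 0.047 (limma adjusted p = 0.144). The suprabasal epidermal keratin Krt10 went from 7.55 ± 0.061 to 7.62 ± 0.028 (limma adjusted p = 0.229, both SD, n = 3). The replicate block called 1 of the 9 lower and array weights called 2 higher. The block call was Krt6a, a keratin of stressed and hair follicle epithelium (difference -0.12, SE 0.066, adjusted p = 0.257 without the block and 0.0468 with it). By its mean over all arrays, 14 of the 17 squamous genes on the array lay below the filter, among them the keratin genes Krt5, Krt14, Krt13 and Krt4. The 3 tested were Krt10, Krt6a and the cornified envelope gene Sprr1a, which was 1.85-fold higher (difference 0.89, SE 0.059, limma adjusted p = 4.24e-05). Lor, encoding loricrin of the cornified envelope, lay below the filter by its overall mean and averaged 6.94 in control and 6.31 in HDAC2 KO. Without the filter, 1 of the 17 squamous genes was called higher and 1 lower.

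Genes of surface colonocytes were called more often higher than lower. Of 20 such genes, all tested, 9 rose, 2 fell and 9 were not called, with a median difference of 0.086, against 9.68% of all genes tested called higher and 8.2% called lower. The carbonic anhydrase gene Car1 rose by 0.46 (SE 0.035, limma adjusted p = 8.6e-05), close to the Krt20 difference, and the immunoglobulin domain gene Tmigd1 by 0.75 (SE 0.034, adjusted p = 5.19e-06). Slc37a2, a sugar-phosphate transporter, fell by 0.57 on the log2 scale (SE 0.041, adjusted p = 7.23e-05). Slc26a3, the chloride-bicarbonate exchanger of the surface, differed by 0.046 (SE 0.044, adjusted p = 0.523). The count of risen genes was between 8 and 11 in the 15 other fits. The list's summed linear signal ranged from 140517 to 141674 over control arrays and from 152611 to 156011 over HDAC2 KO arrays. This list, like the others, was chosen with earlier results of these data known. Its part in the Krt20 result was not tested.

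In the list of crypt base genes and Wnt targets 2 of 15 tested genes rose and 3 fell, with a median of -0.065, where 9.68% of all genes tested rose and 8.2% fell. At an unadjusted p under 0.05, 3 were higher and 7 lower, and 4 of the 15 differences were positive. The number called changed with the fit. Ascl2, a stem cell transcription factor, fell by 0.32 on the log2 scale (SE 0.044, limma adjusted p = 0.00197), and Prom1, which encodes prominin 1, rose by 0.24 (SE 0.035, adjusted p = 0.00278). The number that fell was 5 with the block, 6 with array weights and 1 without control replicate 1. Of 19 proliferation genes 14 rose and 0 fell (0 also at an unadjusted p under 0.05), with a median of 0.17, among them Ccna2, which encodes cyclin A2 (0.24, SE 0.037, adjusted p = 0.00375). This count was lower without most of the arrays. It was 6, 5 and 6 without control replicates 1, 2 and 3, and 4, 14 and 8 without HDAC2 KO replicates 1, 2 and 3. Calls over all genes tested, 1952 with all arrays, also changed, to between 1130 and 2107 without 1 array. The median of the proliferation genes stayed between 0.15 and 0.19 in all 15 fits. Genes of the whole epithelium shifted little. Of 17, 1 rose and 0 fell by limma (5 and 0 at an unadjusted p under 0.05), with a median of 0.052. Epcam, an adhesion molecule of all epithelial cells, differed by 0.024 (SE 0.031) and Cdh1, encoding E-cadherin, by -0.0053 (SE 0.060). The Krt8, Krt18 and Krt19 differences of 0.044, 0.10 and 0.032 lay around that median, and the Krt20 difference lay outside the range of all 17.

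**Figure D4:**
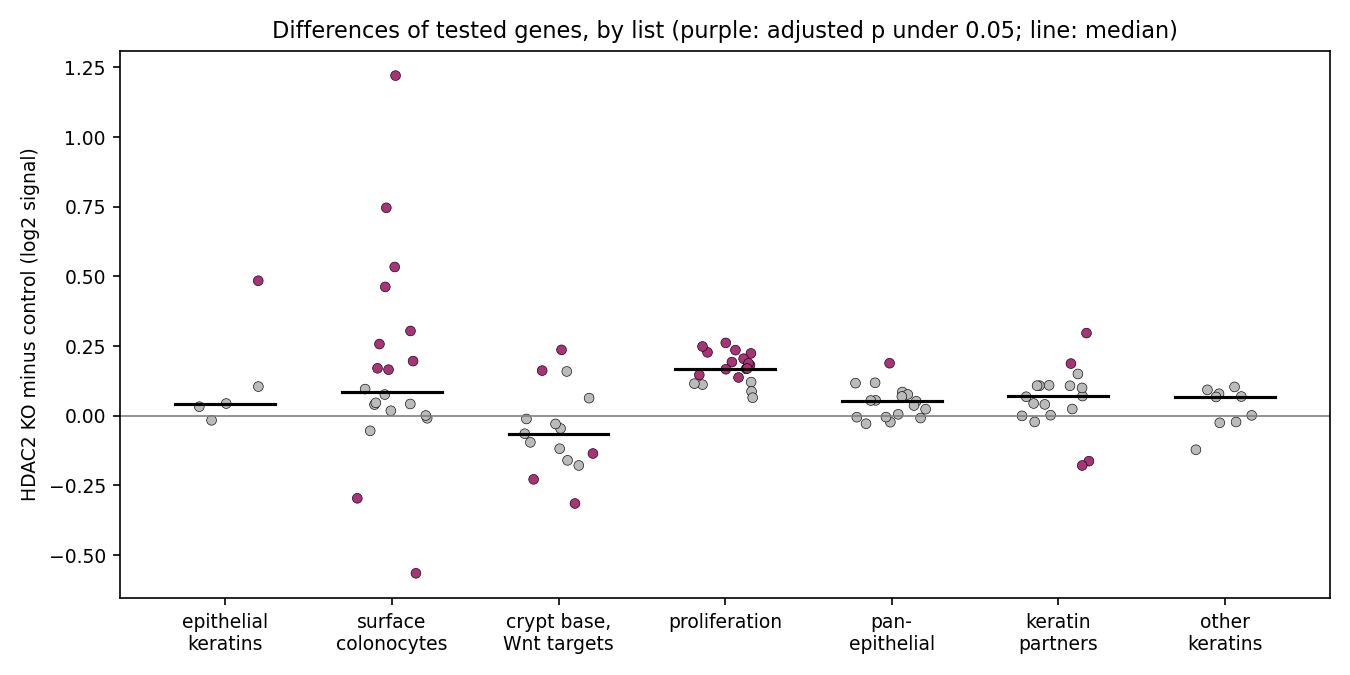
Differences, HDAC2 KO minus control in log2 signal, of the 5 tested epithelial keratins and of the tested genes of 6 lists; purple points have an adjusted p under 0.05 and lines mark the median of each group. The highest keratin point, Krt20 at 0.48, lies among the upper surface colonocyte genes, while the pan-epithelial genes stay near their median of 0.052.

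Genes listed as keratin partners and desmosome linkers were called at about the rate of all genes. Of 18 tested, 2 rose and 2 fell, with a median of 0.069, beside 9.68% and 8.2% of all genes tested. Pkp3, which encodes the desmosomal plaque protein plakophilin 3, was higher by 0.19 (SE 0.039, limma adjusted p = 0.0141). Eppk1, encoding epiplakin, a cytolinker that binds keratins 8 and 18, was lower by 0.16 (difference -0.16, SE 0.036, adjusted p = 0.0168), and Pkp1 was lower (difference -0.18, SE 0.048, adjusted p = 0.0374). Calls in this list were fragile. It held 0 calls without control replicate 1 and 0 without HDAC2 KO replicate 1, and 1 without control replicate 2 or 3. More were called with array weights (7 higher, 2 lower), without HDAC2 KO replicate 2 (6 and 2) and with the mean of probe sets (5 and 2). The adjusted p reached 0.0658 for Pkp3, 0.0702 for Eppk1 and 0.123 for Pkp1. Desmoplakin and plectin, the main cytolinkers of keratin filaments, were not called, with Dsp at -0.022 (SE 0.056) and Plec at 0.11 (SE 0.034, adjusted p = 0.0646).

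Of 16 tested transcription factors of epithelial differentiation, 2 rose and 0 fell by limma (3 and 2 at an unadjusted p under 0.05), where 9.68% of all genes tested rose. With 16 genes that count is near the background. Cdx2, a hindgut homeobox factor, averaged 10.81 ± 0.014 on control and 11.01 ± 0.018 on HDAC2 KO arrays (SD, n = 3), a difference of 0.20 (SE 0.031, limma adjusted p = 0.0036). It stayed called in all 15 other fits. Jun, a subunit of the AP-1 factor, rose by 0.21 (SE 0.041, adjusted p = 0.011). Klf4, a factor of differentiated surface cells, differed by 0.025 (SE 0.048), and Cdx1 by 0.044 (SE 0.036), neither called.

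Cell types that also carry simple keratins were read beside these values. Mesothelial cells express keratins 7, 8, 18 and 19, and all 7 mesothelial genes on the array, Msln and Wt1 among them, lay below the filter. Their summed linear signal was 316 to 354 over control arrays and 235 to 257 over HDAC2 KO arrays. Without the filter, 3 of these 7 were called lower and 0 higher by limma, with a median of -0.35, where 1386 of all 18193 genes were called. Of 3 tested urothelial genes, 0 were called by limma (1 at an unadjusted p under 0.05). Beside this and the counts below, 9.68% of all genes tested rose and 8.2% fell. Of 6 tested tuft cell genes 1 fell and 0 rose. The summed signal of all 10 tuft cell genes on the array was 1378 to 1386 in control and 1264 to 1297 in HDAC2 KO. Markers of some other cell types differed more. All 7 tested adipocyte genes fell, with a median of -1.58. The summed signal of all 9 adipocyte genes on the array was 14723 to 15361 in control and 3221 to 3340 in HDAC2 KO. All 7 tested B and plasma cell genes fell (median -0.47), as did 3 of 4 T cell genes and 3 of 6 macrophage and dendritic cell genes, of which 1 rose. Of 8 smooth muscle genes 3 rose, with a median of 0.09, and of 8 fibroblast genes 1 fell. With so few genes, the tuft cell and fibroblast counts of 1 are near the share over all genes. The part of these shifts in the keratin values was not tested.

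By Pearson correlation over the 6 arrays, the tested genes most like Krt20 were Ap5m1, a subunit of an adaptor complex (r = 0.998), Prr15, a proline-rich protein gene (r = 0.997), and Fgf7, a growth factor of mesenchymal cells that acts on epithelium (r = 0.996). Their differences were 0.14, 0.41 and 0.47. Within groups, after subtracting each group mean, r with Krt20 was 0.852, 0.835 and 0.69. In 15 other fits the Ap5m1 difference went as low as 0.044, and its limma adjusted p reached 0.479. Since 429 genes had an r above 0.95 with Krt20, mostly through the shared difference between 2 groups, the order among them describes these arrays only.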

How the data were processed

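Colon RNA of 3 control and 3 HDAC2 KO samples was measured on 1 Affymetrix array each. The deposited values are log2 signals made by the authors with RMA (version not stated), per the submitters' processing notes. This method subtracts background, equalises the distribution of every array and summarises probe sets, which compresses low signals and hides a change in total RNA. The log2 scale was read from the values (2.39 to 14.6). No batch was tested, since scan dates were not used, and the number of arrays limits the precision. Genes were named by a platform annotation of 2016.

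For each gene the probe set of highest mean was used, and the 10916 of 18193 genes at or above the 40th percentile (6.66) were tested with limma 3.58.1 in R 4.3.3 (group as sole term, Benjamini-Hochberg over all genes tested, called under 0.05). A second fit took all 45037 probe sets. The fit was tested on simulated data. Pairs of keratins used exact permutation tests over arrays.

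Members and lists were chosen with earlier results of these data known. Named are the 7 keratins, up to 3 genes of smallest p per list, further keratins called or not overlapping, Hdac2 and Hdac1, and the 3 genes most correlated with each called keratin. Krt6a, Lor, Slc26a3, Epcam, Cdh1, Dsp, Plec, Klf4, Cdx1, Xist, Kdm5d and the members named as below the filter were named after their values were seen.

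Same-numbered arrays correlated in their deviations from the group means with r between 0.20 and 0.34, against -0.37 to 0.18 for other pairs of arrays across groups, so the replicate number was treated as a pairing in an alternative fit. The labels do not state what a number shares.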

Additional observations from a re-analysis of the deposited data

How the results depend on the processing

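The Krt20 call was kept in all 15 alternative fits of the gene test. The number of keratin genes called was 1, and it was 2 in 6 of those fits. Krt23 was the second without the filter and with the mean of probe sets, both of which let it be tested. Krt18 was the second with the filter at the 60th percentile, after a further quantile normalization, with limma's trend and robust settings and with array weights. It was also 2 at an adjusted p under 0.10, and between 1 and 1 when 1 array was left out. Of the 9 keratin probe sets 2 were called, against 1 in the fit with a replicate block and 1 without any single array, and 3 with limma's trend and robust settings, Krt18 being the third. Among all keratins the block ended the Krt23 call and added Krt6a, called lower, and changed no other call of the 9 probe sets. Over all genes tested, 1952 were called, 3506 with array weights, 954 at an adjusted p under 0.01, and between 1130 and 2107 without 1 array, the lowest without control replicate 1.

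The shift of Krt20 minus Krt8 was 0.49 after a further quantile normalization, and 0.42 to 0.46 without 1 array. That of Krt7 minus Krt8 was -0.014 after the further normalization. Krt80 changed sign without HDAC2 KO replicate 3 (-0.0015) and was at most 0.093 without HDAC2 KO replicate 1, and Krt80 minus Krt8 lay between -0.034 and 0.049 without 1 array. Slc12a2, called higher among the crypt base genes, had a difference of -0.11 with the mean of its probe sets.

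In lists, with fits chosen after seeing the data, 6 proliferation genes rose without the filter and 9 with array median centring, and between 4 and 14 without 1 array. Crypt base genes that fell numbered 6 with array weights, 5 with the block and between 1 and 4 without 1 array. Scaling moved the median of all genes by little, to 0.0061 and 0.0064. The cause of these changes was not tested.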

Other observations

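Among secretory lineage genes, 1 of 10 goblet cell genes rose and 2 fell, with a median of 0.0059, where 9.68% and 8.2% of all genes tested did. Groups did not overlap for 8 of the 10 and for 37.7% of all genes tested. Atoh1, the factor that commits cells to the secretory lineage, fell by 0.20 on the log2 scale (SE 0.035, limma adjusted p = 0.0057). Of 10 tested enteroendocrine genes 3 rose and 3 fell, above the shares over all genes tested in both directions. Without control replicate 1 the counts were 1 and 1. Chga, encoding chromogranin A, fell by 0.22 (SE 0.038, adjusted p = 0.00588) and Sst, encoding somatostatin, rose by 0.25 (SE 0.047, adjusted p = 0.00831).

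Among 10 tested genes of other intermediate filaments, 1 rose and 0 fell (2 and 1 at an unadjusted p under 0.05). The gene that rose was Des, encoding desmin of muscle cells, with a difference of 0.21 (SE 0.040, limma adjusted p = 0.0089). It is also a member of the smooth muscle list, and its call was lost with the mean of its probe sets (adjusted p = 0.124).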
